A study of Rattus norvegicus with 6 samples.

Results

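Hearts released from transverse aortic constriction (TAC), labelled TAC-R, were compared with normal hearts to ask what still differed from normal after release. The comparison uses 4 of the 6 arrays of the series, the 2 titled TAC-R and the 2 titled normal, chosen by those titles alone. Each array measured RNA of a whole rat heart, and 23188 of the 24834 rows of the table, all except the control rows, were tested. All animals were male Sprague-Dawley rats 10 weeks old. In the TAC surgery a silk thread was tied around the transverse aorta, upstream of the left common carotid artery, over a blunt needle that was then withdrawn. A loop left beside the knot marked where to cut the thread later, and the TAC-R hearts are those released from the constriction. Control rats had the operation with no thread tied, and whether the normal hearts were taken from those rats or from unoperated ones is not stated. How long the hearts were under TAC, and how long after release they were taken, is not stated in the sources used here. No label ties an array to an animal. If both arrays of a group share an animal, the p-values reflect technical spread between arrays and nothing more.

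A narrowed aorta makes the left ventricle pump against a higher pressure. Heart muscle under such load is known to enlarge, to secrete more of the natriuretic peptides encoded by Nppa and Nppb, and to express genes of the fetal heart, while fibroblasts lay down collagen. Immediate early genes such as Egr1 answer stretch, growth factors and handling of the tissue within minutes, and the response to interferon is carried by a set of genes that rise together. Release of the constriction removes the load, and part of the changes in heart muscle and matrix is known to regress afterwards.

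The arrays were alike in their distributions, as normalization makes them, with medians of the log2 signal from 5.31 to 5.39. The ventricular muscle markers with a named row (9 of the 10 listed) had mean levels of 18.8 to 18.9 on each array. Of these 9 markers 3 lay at the ceiling of the scale on all 6 arrays, which limits how far the means could differ. One protocol field, on RNA extraction, names cultured fibroblasts, whereas title, source and tissue name the whole heart. Genes that answer load did not all follow the labels. Nppb read 16.05 and 15.72 on the normal arrays, 13.57 and 13.88 on the TAC arrays and 16.91 and 17.23 on the TAC-R arrays (log2 signal). Myh7, the slow myosin heavy chain, was at 19.91 or at the ceiling of the scale, 19.93, on the normal and TAC-R arrays and read 17.87 and 17.76 on the TAC arrays. Nppb and Myh7 were thus lower on the arrays labelled TAC than on the normal arrays, with a difference of -2.16 log2 units in Nppb (adjusted p = 0.0118, limma with Benjamini-Hochberg adjustment). The difference of -2.10 in Myh7 (adjusted p = 0.00627, limma) is as read and a lower bound in size, since its normal signals lay at or near the ceiling. Nppa, Acta1 and Ankrd1 also read lower on the TAC than on the normal arrays without passing, with differences of -1.38, -0.99 and -0.61. Over the 19 natriuretic peptide and fetal genes with a row, the median difference of TAC from normal was -0.30. Collagen and fibronectin genes read higher on the TAC than on the normal arrays without passing, with differences of 0.97 in Col1a1, 1.02 in Col3a1, 0.90 in Col1a2 and 0.93 in Fn1. The groups are therefore named as labelled throughout, and the cause of this order was not tested.

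Between the TAC-R and the normal arrays 21 rows passed an adjusted p of 0.05 (limma over all tested rows with Benjamini-Hochberg adjustment), which is 0.0906% of the rows tested. Of these, 14 were higher on the TAC-R arrays (0.0604% of all rows) and 7 were lower (0.0302%). Of the 15049 rows with a gene symbol 17 passed (0.113%). These were Myl7, Chrna1, Ncam1, Ifi27, Aif1l, Ankrd23, Cpxm2, Ifi27l2b, Cyp4v3, Alas2 and Irf7, which rose, and Egr1, Ccn1, Fgf7, Vamp1, Dusp1 and Retsat, which fell. The other 4 rows had no symbol. A row counted as above background where both arrays of its brighter group lay above the 95th percentile of the negative control rows of the same array, a percentile that ranged from 8.09 to 8.55. By that measure 17 of the 21 were above background, 12 higher and 5 lower, out of 5966 rows that met it (0.285%). Since a row can meet it through the very group in which it is high, the count was also taken over the 6055 rows whose mean over all 6 arrays lay above background, and 12 of these passed (0.198%).

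A wider set differed without passing the adjusted threshold. An unadjusted p under 0.05 was reached by 2478 rows, 10.7% of those tested, where 1159 would be expected if no row differed. Among them 331 rows (1.43%) were also at least 2-fold apart, of which 186 (0.802%) had the higher signal on the TAC-R arrays and 145 (0.625%) the lower. The middle of all tested rows did not shift, since the median difference was 0.00 log2 units and 5% of the rows lay below -0.61 and 5% above 0.59. With 2 arrays against 2 the values of the groups failed to overlap in 40.9% of all rows, 20.6% higher and 20.3% lower, so a gap between the groups is by itself common. An exact two-sided permutation test of 2 arrays against 2 cannot go below p = 0.333, so the calls rest on the spread that limma pools over rows. The calls also rest on each array: 1 row passed without normal replicate 1, 0 without normal replicate 2 (1630 rows at an unadjusted p under 0.05), 2 without TAC-R replicate 1 and 7 without TAC-R replicate 2. Leaving out either TAC array, which enters only through the pooled spread, left 12. No row passed in all 6 of these fits, and Egr1 passed in 5. Ankrd23, Cyp4v3, Cpxm2, Ifi27l2b, Alas2, Irf7, Retsat and Dusp1 missed the threshold whichever array was left out, and also with the normal and TAC-R arrays alone. Aif1l, Ccn1, Vamp1, Fgf7 and Ifi27 passed only where all normal and TAC-R arrays were kept. Leaving out a TAC array kept the same named genes as the normal and TAC-R arrays alone, so those fits do not vary the compared arrays.

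**Figure D1:**
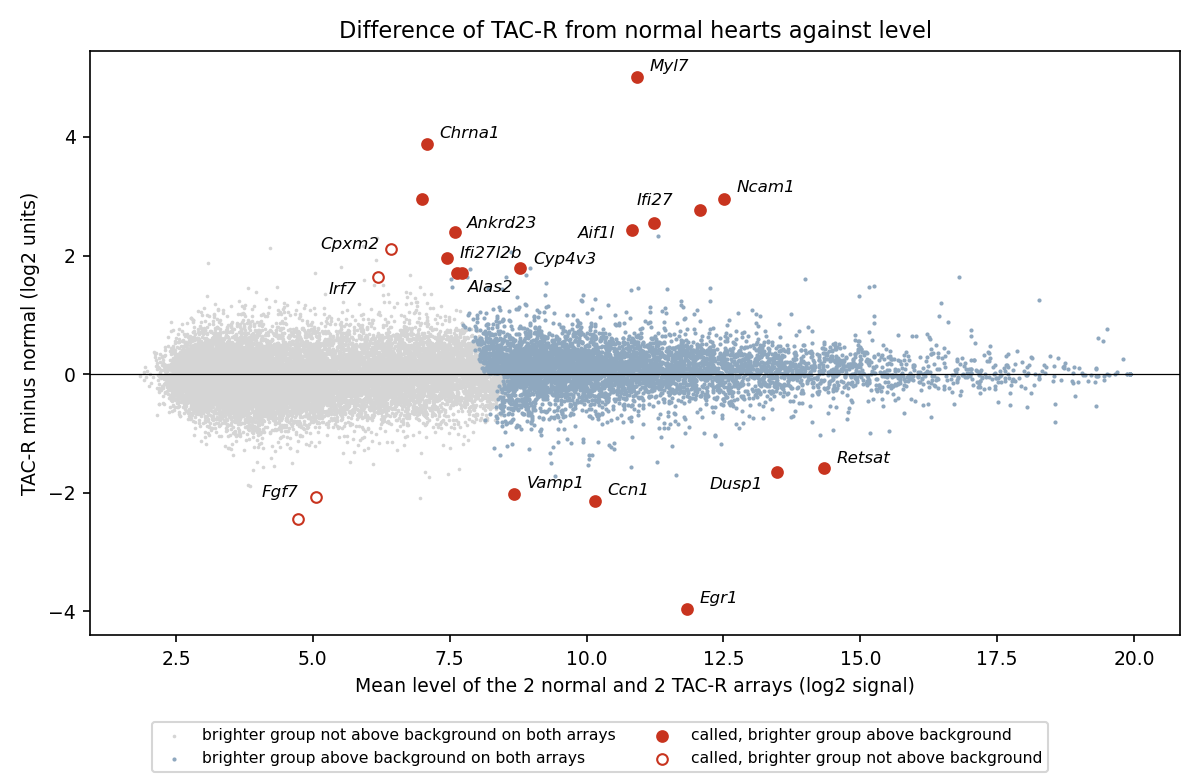
The difference of the TAC-R from the normal arrays in log2 units (vertical) is plotted against the mean level of the same 4 arrays in log2 signal (horizontal) for 23188 rows. Red points are the 21 rows that passed, open where the brighter group was not above background, and those without a name are unnamed rows. Myl7 stands highest at 5.00 and Egr1 lowest at -3.96.

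Egr1 was the gene that fell most. Egr1 is a zinc finger transcription factor of the immediate early class. It read 13.62 and 14.00 on the normal arrays, 11.01 and 10.75 on the TAC arrays and 9.98 and 9.73 on the TAC-R arrays. Both TAC-R values lay below both normal values and both TAC values. The difference of TAC-R from normal was -3.96 ± 0.24 log2 units (SE), a 15.5-fold lower signal (adjusted p = 0.00158, limma). Its highest adjusted p with 1 array left out was 0.0589.

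Dusp1 encodes a phosphatase that switches off MAP kinases and is itself induced early by stress and by glucocorticoids. Its signal was 14.35 and 14.24 on the normal arrays, 13.73 and 13.95 on the TAC arrays, and 12.78 and 12.51 on the TAC-R arrays. It fell by 1.65 log2 units (SE 0.22), that is 3.14-fold (adjusted p = 0.0493, limma), and it passed in 0 of the 6 fits that left out 1 array. Ccn1 encodes a secreted matricellular protein that is also induced early, by stretch and serum. It read 11.14 and 11.30 on the normal arrays, 10.13 and 9.93 on the TAC arrays, and 9.17 and 8.98 on the TAC-R arrays. Its difference was -2.14 ± 0.22 log2 units, 4.41-fold lower (adjusted p = 0.0130, limma). The TAC arrays lay between the other groups in Egr1, Dusp1 and Ccn1.

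Of the 24 immediate early genes with a named row, 2 fell (Egr1 and Dusp1), 0 rose and 22 did not pass. The median difference over the list was -0.51 log2 units, against 0.00 for all rows. In 17 of the 24 both TAC-R arrays lay below both normal arrays and in 2 both lay above, where all rows gave 20.3% and 20.6%. Most of the list was dim, with 17 of 24 genes below background on all 6 arrays, so sizes were measured for few. The 6 members above background were Egr1, Dusp1, Zfp36, Klf6, Jun and Jund. Zfp36, which destabilises messenger RNAs of cytokines, differed by -1.43 log2 units, Klf6 by -0.75, Jun by -0.55 and Jund by -0.13, none past the threshold (these names other than Jund were added after their values were seen). Jund, which many cells express without a stimulus, read 11.53 and 10.96 on the normal and 11.33 and 10.89 on the TAC-R arrays, and its groups overlapped. The mean level of the list was 7.43 and 7.42 on the normal arrays, 7.05 and 6.98 on the TAC arrays and 6.88 and 6.65 on the TAC-R arrays.

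The 250 bases before the start sites of Egr1, Dusp1 and Ccn1 are shown because these 3 genes of the early response fell together. The sequences are RefSeq's for the GRCr8 build, where 14 of the 17 named genes that passed had a window (Ncam1, Cyp4v3 and Ifi27l2b did not). Capitals mark CArG boxes, the site of serum response factor, and the cAMP response element core ACGTCA, both searched on both strands.
Egr1, chr18:26736828-26737077, plus strand: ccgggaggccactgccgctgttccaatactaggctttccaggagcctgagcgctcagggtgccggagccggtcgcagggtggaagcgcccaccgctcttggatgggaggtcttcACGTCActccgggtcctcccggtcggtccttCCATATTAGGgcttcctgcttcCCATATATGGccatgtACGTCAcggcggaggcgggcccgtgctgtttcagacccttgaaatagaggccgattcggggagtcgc
Dusp1, chr10:17184603-17184852, plus strand: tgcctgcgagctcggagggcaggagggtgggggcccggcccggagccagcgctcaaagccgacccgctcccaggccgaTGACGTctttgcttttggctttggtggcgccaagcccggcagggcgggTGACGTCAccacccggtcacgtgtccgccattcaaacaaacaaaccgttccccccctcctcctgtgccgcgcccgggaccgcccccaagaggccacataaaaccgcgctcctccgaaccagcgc
Ccn1, chr2:237225690-237225939, minus strand: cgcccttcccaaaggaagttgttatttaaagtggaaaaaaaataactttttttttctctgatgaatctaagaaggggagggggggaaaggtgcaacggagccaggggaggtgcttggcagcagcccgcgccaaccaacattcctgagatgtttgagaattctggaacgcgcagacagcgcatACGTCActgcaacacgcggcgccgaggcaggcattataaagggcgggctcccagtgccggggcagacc

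The Egr1 window held 2 CArG boxes, at bases -105 to -96 and -83 to -74 from the start site, and 2 ACGTCA matches. In the Dusp1 window there were 3 matches of ACGTCA on either strand, of which the last 2 overlap, and 0 CArG boxes. The Ccn1 window held 1 match of ACGTCA, at bases -68 to -63. A CArG box was in 1.5% and ACGTCA in 6.95% of the 33469 promoter windows of the table. Among the 14 windows of genes that passed, 2 held a CArG box (Egr1 and Vamp1) and 4 held ACGTCA (these 3 and Vamp1). The motif ACGTCA was chosen after these sequences had been seen. A match of letters is a description and does not show that a factor was bound.

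Myl7 rose most of all. Myl7 encodes the atrial form of the regulatory myosin light chain. Its signal was 8.40 and 8.43 on the normal arrays, 7.48 and 7.51 on the TAC arrays, and 14.30 and 12.54 on the TAC-R arrays. The normal values lay just below their arrays' background percentiles, so the size is a lower bound: at least 30.3-fold higher on the TAC-R arrays, measured against the percentile. The difference as read was 5.00 ± 0.47 log2 units (adjusted p = 0.0105, limma). The TAC-R arrays themselves differed: the difference was 4.12 without TAC-R replicate 1 and 5.89 without TAC-R replicate 2, and Myl7 passed in 4 of the 6 fits that left out 1 array.

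Some other genes of atrial muscle also read higher on the TAC-R arrays, without passing. Nppa, the atrial natriuretic peptide, read 9.97 and 10.32 on the normal arrays, 8.60 and 8.92 on the TAC arrays, and 13.69 and 11.26 on the TAC-R arrays. Its difference of 2.33 ± 0.62 log2 units did not pass (adjusted p = 0.288, limma). Myl4, the atrial essential light chain, read 4.69 and 5.37 on the normal and 8.72 and 5.91 on the TAC-R arrays, and sarcolipin (Sln), a small inhibitor of the calcium pump in atria, read 3.44 and 3.80 against 6.10 and 4.07. Sln was below background on all 6 arrays, and of the Myl4 signals only that of TAC-R replicate 1 was above it. Each of these 3 genes was higher on TAC-R replicate 1 than on TAC-R replicate 2. Over the 8 atrial muscle markers, 1 rose (Myl7), 7 did not pass, and the median difference was 0.90 log2 units. Both TAC-R arrays lay above both normal arrays in 5 and below in 2 (Stard10 and Nr2f1, which were not above background). All rows gave 20.6% above and 20.3% below. Dkk3, a marker above background as Myl7 and Nppa were, read 10.73 and 10.46 on the normal and 10.77 and 10.68 on the TAC-R arrays, a difference of 0.13 with overlapping groups. The wider list of 15 atrial chamber genes, which shares members with the markers, had a median difference of 0.14, with 1 risen (Myl7) and 14 not passed, and with 7 apart and higher and 3 apart and lower. Among its members Gja5, an atrial gap junction protein, differed by 0.01 and Nr2f2, a transcription factor of atrial identity, by -0.34. The mean level of the 8 was 6.53 and 6.66 on the normal arrays, 6.16 and 6.16 on the TAC arrays, and 8.48 and 7.32 on the TAC-R arrays. Of the defining markers, Bmp10 stayed between 2.65 and 3.11 on all 6 arrays, below background. The share of atrial tissue in each heart sample is not stated in the labels, and its part in the Myl7 result was not tested. In whole tissue a change in the number of cells of a type and a change in RNA per cell cannot be told apart.

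Nppb, the B-type natriuretic peptide of stretched ventricle, was 1.19 ± 0.24 log2 units higher on the TAC-R than on the normal arrays and did not pass (adjusted p = 0.170, limma). It passed against the TAC arrays, by 3.35 ± 0.24 log2 units (adjusted p = 0.00204, limma). Acta1, skeletal alpha-actin, read 19.17 and 19.09 on the normal arrays and 17.98 and 18.29 on the TAC arrays. On the TAC-R arrays it read 19.85 and 19.93, the last at the ceiling. Its difference of TAC-R from normal, 0.77 log2 units (adjusted p = 0.305, limma), is therefore a lower bound. Ankrd1, a titin-binding ankyrin repeat protein of stretched muscle, differed by 0.61 log2 units (adjusted p = 0.358, limma). For Myh7 and for Atp2a2, the calcium pump of the sarcoplasmic reticulum, no difference could be measured because both groups were at or near the ceiling. Of the 19 natriuretic peptide and fetal genes with a row, 0 passed and the median difference was 0.20 log2 units. Both TAC-R arrays lay above both normal arrays in 7 of the 19 and below in 1, where all rows gave 20.6% and 20.3%. Xirp2, a protein of the intercalated disc, was at the low end of those above background, with -0.01.

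**Figure D2:**
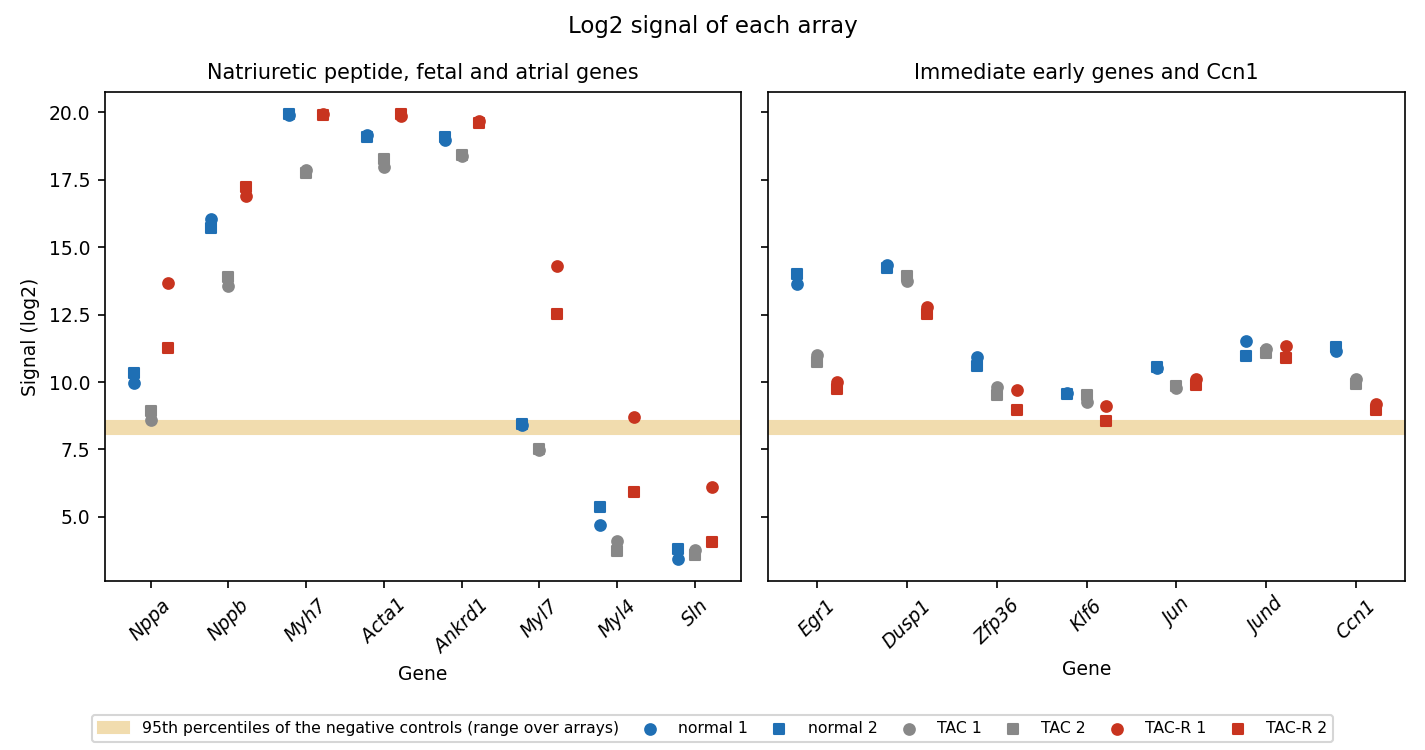
Log2 signal of each array is plotted for 8 natriuretic peptide, fetal and atrial genes (left) and for 7 early genes (right), with normal arrays in blue, TAC arrays in grey and TAC-R arrays in red, circles for replicate 1 and squares for replicate 2. The band spans the background percentiles of the arrays. Nppa, Myl7, Myl4 and Sln are highest on TAC-R replicate 1, and Egr1, Dusp1 and Ccn1 are lowest on the TAC-R arrays.

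Other muscle genes rose beside Myl7. Chrna1, the alpha subunit of the acetylcholine receptor of skeletal muscle, read 5.26 and 5.05 on the normal arrays, 7.48 and 8.16 on the TAC arrays, and 9.02 and 9.04 on the TAC-R arrays. The normal signals and that of TAC replicate 1 lay below background, and the difference was bounded at 1.45-fold or more (3.88 ± 0.26 log2 units as read, adjusted p = 0.00223, limma). Ncam1, a cell adhesion molecule of nerve and of developing or denervated muscle, was measured in all 3 groups. It read 11.13 and 10.95 on the normal arrays, a mean of 12.06 on the TAC arrays, and 14.40 and 13.60 on the TAC-R arrays. That is 7.78-fold above normal (2.96 ± 0.28 log2 units, adjusted p = 0.0110, limma). Chrna1 and Ncam1 each passed in 3 of the 6 fits that left out 1 array, and in both the TAC arrays lay between the other groups. Ankrd23, an ankyrin repeat protein of the muscle titin complex, read 6.66 and 6.13 on the normal arrays, 5.74 and 5.72 on the TAC arrays, and 9.03 and 8.54 on the TAC-R arrays. It was at least 1.22-fold higher (2.39 ± 0.27 log2 units as read, adjusted p = 0.0207, limma), and passed in 0 of the 6 fits. The nerve and Schwann cell markers with a row, 11 in all, were below background on all 6 arrays, and of the 15 skeletal muscle markers 0 passed, with a median difference of -0.15.

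Aif1l, an actin-binding protein related to allograft inflammatory factor, read 9.62 and 9.60 on the normal arrays, 9.20 and 9.08 on the TAC arrays, and 12.13 and 11.95 on the TAC-R arrays. It was 5.41-fold above normal (2.43 ± 0.21 log2 units, adjusted p = 0.00750, limma), and the TAC arrays lay below the normal ones. Cyp4v3, a cytochrome P450 that hydroxylates fatty acids, read 7.81 and 7.99 on the normal arrays, 9.58 and 9.85 on the TAC arrays, and 9.47 and 9.90 on the TAC-R arrays. It was at least 2.28-fold above normal (1.79 ± 0.24 log2 units as read, adjusted p = 0.0493, limma) and differed from the TAC arrays by -0.02. It passed in 0 of the 6 fits that left out 1 array. Aif1l was thus high on the TAC-R arrays alone, whereas Cyp4v3 was high on the TAC and the TAC-R arrays. Cpxm2, a member of the carboxypeptidase family, passed (adjusted p = 0.0493, limma) with its signals below background on all 4 arrays, so its size was not measured. Of the 3 unnamed rows that rose, 1 was measured in all groups. It read 11.04 and 10.33 on the normal arrays, 11.99 and 11.76 on the TAC arrays, and 13.30 and 13.61 on the TAC-R arrays (2.77 ± 0.28 log2 units, adjusted p = 0.0130, limma).

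**Figure D3:**
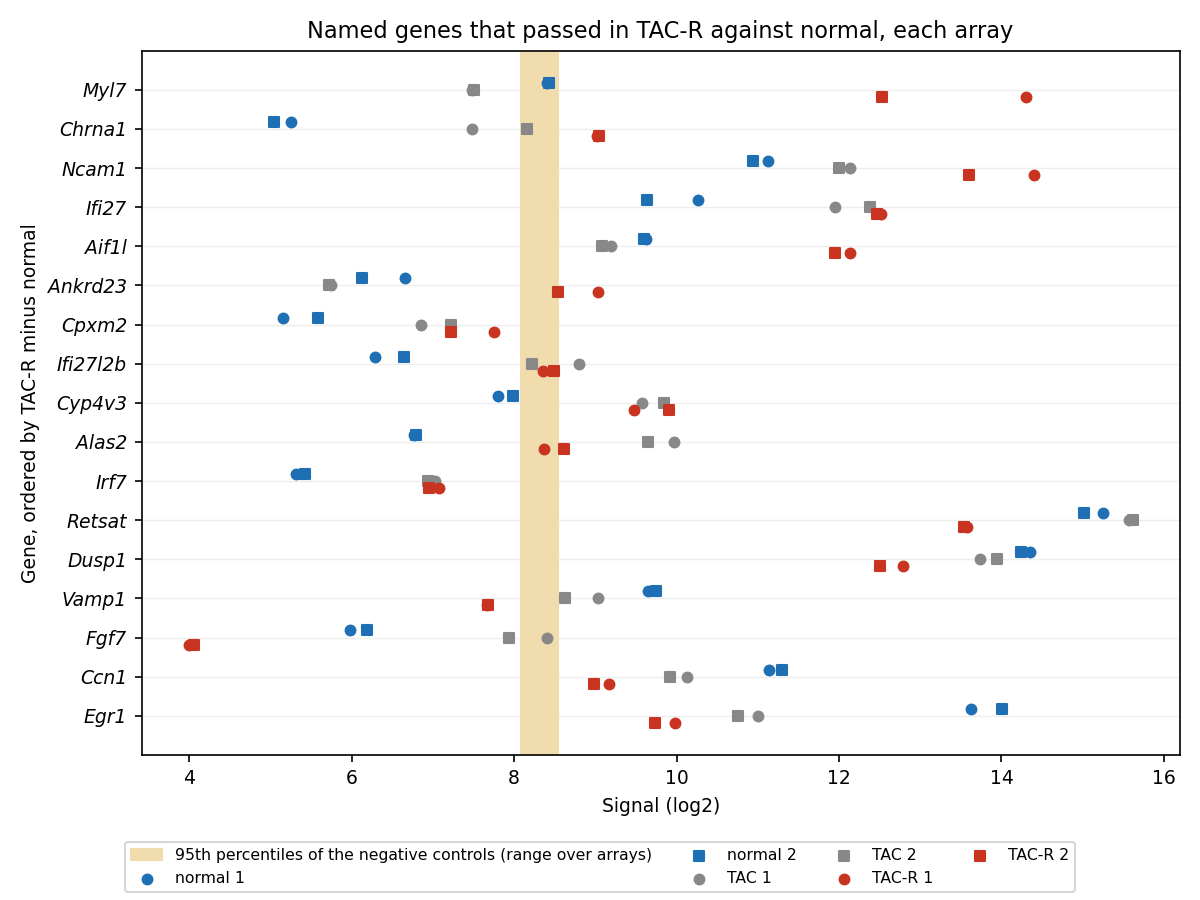
Log2 signal of each array (horizontal) is plotted for the 17 named genes that passed, ordered by the difference of TAC-R from normal, with normal arrays in blue, TAC arrays in grey, TAC-R arrays in red, circles for replicate 1 and squares for replicate 2. The band spans the background percentiles, 8.09 to 8.55. In 11 genes both red points lie to the right of both blue ones and in 6 to the left.

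Genes induced by interferon were among those that rose. Ifi27, an interferon-induced protein of mitochondria and the nuclear membrane, read 10.27 and 9.64 on the normal arrays, 11.95 and 12.38 on the TAC arrays, and 12.52 and 12.47 on the TAC-R arrays. It was 5.83-fold above normal (2.54 ± 0.27 log2 units, adjusted p = 0.0185, limma). The TAC arrays were also above normal, by 2.21 log2 units (adjusted p = 0.0165, limma). Irf7, the transcription factor that drives type I interferon genes, read 5.32 and 5.42 on the normal arrays and 7.07 and 6.95 on the TAC-R arrays. It rose (adjusted p = 0.0437, limma), with a size not measured since these signals were below background. Ifi27l2b, a relative of Ifi27, read 6.29 and 6.65 on the normal arrays, 8.79 and 8.23 on the TAC arrays, and 8.36 and 8.49 on the TAC-R arrays (adjusted p = 0.0493, limma). Its size was not measured either, and probes for members of this family can bind transcripts of one another. Irf7 and Ifi27l2b missed the threshold whichever array was left out, and Ifi27 passed only where all normal and TAC-R arrays were kept.

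Of 27 interferon response genes with a row, 2 rose (Ifi27 and Irf7), 0 fell and 25 did not pass. The median difference was 0.41 log2 units, and 19 of the 27 were below background on all 6 arrays. Both TAC-R arrays lay above both normal arrays in 15 and below in 1, where all rows gave 20.6% and 20.3%. Bst2, which tethers budding viruses, was well above background and differed by -0.03. The mean level of the list was 6.15 and 5.99 on the normal arrays, 7.16 and 7.04 on the TAC arrays, and 6.67 and 6.60 on the TAC-R arrays. The TAC-R arrays thus lay between the other groups on this list, while Ifi27 read highest on them (0.33 above the TAC arrays, not past the threshold). Genes of MHC and antigen presentation numbered 17 with a row, of which 0 passed, with a median difference of 0.30. Tapbp, which loads peptides onto class I molecules, differed by 0.76 log2 units and Cd74, the invariant chain of class II, by -0.84. The macrophage markers (19 with a row, 0 passed) had a median difference of 0.15, and those of T and NK cells (15 with a row, 0 passed, 14 below background on all arrays) of -0.03.

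The windows before the start sites of Ifi27 and Irf7 are shown because both genes belong to the interferon response and rose. Capitals mark matches, on either strand, of TTTC followed after any 2 bases by TTTC, the core letters of the interferon-stimulated response element, which were chosen after the sequences had been seen.
Ifi27, chr6:128355062-128355311, plus strand: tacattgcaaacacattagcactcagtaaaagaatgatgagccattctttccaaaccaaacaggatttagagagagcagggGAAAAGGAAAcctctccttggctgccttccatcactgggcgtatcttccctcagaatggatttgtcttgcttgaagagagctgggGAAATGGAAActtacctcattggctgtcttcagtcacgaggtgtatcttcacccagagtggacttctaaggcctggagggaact
Irf7, chr1:205800024-205800273, minus strand: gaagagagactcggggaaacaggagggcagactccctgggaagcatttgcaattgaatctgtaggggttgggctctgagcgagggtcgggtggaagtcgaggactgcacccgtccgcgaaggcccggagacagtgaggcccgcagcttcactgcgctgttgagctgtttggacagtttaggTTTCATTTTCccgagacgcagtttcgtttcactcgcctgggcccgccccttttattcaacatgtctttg

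Ifi27 held 2 such matches, at bases -169 to -160 and -84 to -75 from the start site, and Irf7 held 1, at bases -69 to -60. The motif was in 3.41% of all windows of the table and in 3 of the 14 windows of genes that passed, the third being that of Vamp1, which fell. Of the other motifs searched on both strands, AGATAA, the letters read by Gata4 and its relatives, was in 2 of the 14 against 10.3% of all windows. The TEAD letters CATTCC were in 6 against 12.1%, the Nkx2-5 letters CACTTNA in 3 against 9.89%, and the MEF2 site in 0 against 0.523%.

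Among the genes that fell outside the early response, Retsat encodes retinol saturase, an enzyme of vitamin A metabolism. It read 15.25 and 15.02 on the normal arrays, 15.57 and 15.61 on the TAC arrays, and 13.57 and 13.54 on the TAC-R arrays, 2.98-fold below normal (-1.58 ± 0.21 log2 units, adjusted p = 0.0493, limma). It passed in 0 of the 6 fits that left out 1 array. The TAC arrays were the highest, so the low level was seen on the TAC-R arrays alone. Vamp1, a vesicle protein of the membrane fusion machinery, read 9.65 and 9.74 on the normal arrays, 9.03 and 8.63 on the TAC arrays, and 7.67 and 7.68 on the TAC-R arrays. The TAC-R values were below background, which gives at least 2.96-fold lower (-2.02 ± 0.23 log2 units as read, adjusted p = 0.0207, limma). Fgf7, a growth factor that fibroblasts make for epithelium, read 5.99 and 6.19 on the normal arrays, 8.40 and 7.94 on the TAC arrays, and 4.00 and 4.06 on the TAC-R arrays. It fell (adjusted p = 0.0242, limma), with both groups below background and the size not measured. Gpr22, an orphan receptor of heart and brain, filled the sixth place among genes above background that were lower: it read 11.82 and 11.39 on the normal and 9.97 and 10.11 on the TAC-R arrays and did not pass (-1.57 ± 0.24 log2 units, adjusted p = 0.0846, limma).

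Alas2, the first enzyme of heme synthesis in red cell precursors, rose. It read 6.77 and 6.80 on the normal arrays, 9.97 and 9.65 on the TAC arrays, and 8.36 and 8.61 on the TAC-R arrays (adjusted p = 0.0493, limma), and its size was not measured because the TAC-R mean did not exceed the mean background percentile of the normal arrays. It passed in 0 of the 6 fits that left out 1 array. Hbb, a beta-globin, read 17.50 and 17.77 on the normal and 18.75 and 19.02 on the TAC-R arrays, a difference of 1.24 ± 0.22 that did not pass (adjusted p = 0.122, limma). Hbb-b1, a related beta-globin, read 13.57 and 14.05 on the normal arrays, 16.62 and 16.65 on the TAC arrays, and 13.78 and 14.00 on the TAC-R arrays, where the groups overlapped with normal. Probes of these globins can bind each other's transcripts. Of the 10 red cell markers with a row, 1 rose and 9 did not pass, with a median difference of 0.67 log2 units. Both TAC-R arrays lay above both normal arrays in 6 of the 10, where all rows gave 20.6%. The mean level of the list was 9.25 and 9.32 on the normal arrays, 11.17 and 10.92 on the TAC arrays, and 9.88 and 10.05 on the TAC-R arrays. The blood content of the samples is not given in the labels, and its part in these values was not tested.

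Among matrix genes Ccn1 was the only member of its list to pass. Of 17 genes for fibrillar collagens and their processing, 0 passed, and the median difference was -0.23 log2 units. Both TAC-R arrays lay below both normal arrays in 9 and above in 0, where all rows gave 20.3% and 20.6%. The mean level of the list was 8.27 and 8.28 on the normal arrays and 8.59 and 8.68 on the TAC arrays. It was 8.17 on TAC-R replicate 1 and 7.79 on TAC-R replicate 2, so the 2 TAC-R arrays were not equally low. Col1a1, a chain of type I collagen, read 10.41 and 10.18 on the normal arrays, 11.29 and 11.24 on the TAC arrays, and 10.05 and 9.29 on the TAC-R arrays (-0.62 ± 0.28 log2 units, adjusted p = 0.473, limma). Col3a1, of type III collagen, read 13.26 and 13.37 on the normal arrays, 14.46 and 14.22 on the TAC arrays, and 12.85 and 12.39 on the TAC-R arrays (-0.70 ± 0.24, adjusted p = 0.371, limma). In both genes the TAC-R arrays were the lowest and the TAC arrays the highest. Col1a2 differed from normal by -0.75 and P4ha1, a prolyl hydroxylase, by -0.23.

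Among 29 matricellular and fibrosis genes, 1 fell (Ccn1), 28 did not pass, and the median difference was -0.16. The groups were apart in 3 genes higher and 10 lower, where all rows gave 20.6% and 20.3%. The mean level of the list was 7.55 and 7.54 on the normal arrays and 7.91 and 7.85 on the TAC arrays. It was 7.45 on TAC-R replicate 1 and 7.14 on TAC-R replicate 2, again lower on replicate 2. Fn1, fibronectin, read 9.38 and 9.56 on the normal arrays, 10.39 and 10.40 on the TAC arrays, and 9.05 and 8.18 on the TAC-R arrays (-0.85 ± 0.29, adjusted p = 0.373, limma). Ccn2, the connective tissue growth factor, read 8.49 and 8.71 on the normal and 8.68 and 8.47 on the TAC-R arrays, a difference of -0.03 against -2.14 in its relative Ccn1. Ogn, osteoglycin, was the member above background with the largest positive difference, 0.12. Postn (periostin) and Timp1, an inhibitor of matrix proteases, were below background in both groups. The 8 basement membrane genes had a median difference of -0.72 and 0 passed, and 7 of the 8 were apart and lower. Sparc, a collagen-binding matrix protein, differed by -0.80 and Lamb2, a laminin chain, by -0.37.

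Growth factor genes numbered 37 with a row, of which 1 fell (Fgf7), 36 did not pass, and the median difference was -0.24. Igf2, insulin-like growth factor II, read 10.16 and 10.41 on the normal arrays, 11.36 and 11.42 on the TAC arrays, and 9.26 and 7.89 on the TAC-R arrays (-1.71 ± 0.39, adjusted p = 0.225, limma). Igf1, its relative, read 9.81 and 9.43 on the normal arrays, 10.08 and 10.36 on the TAC arrays, and 8.85 and 8.48 on the TAC-R arrays (-0.96 ± 0.25, adjusted p = 0.276, limma). Both lay lowest on the TAC-R arrays. Fgf12, a fibroblast growth factor that stays inside the cell and binds sodium channels, differed by 0.86.

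The fibroblast and endothelial marker lists also had medians below 0. The 15 fibroblast markers had a median difference of -0.35, with 0 passed, 8 apart and lower and 1 apart and higher. Over all rows 20.3% were apart and lower and 20.6% apart and higher. Their mean level was 9.33 and 9.12 on the normal arrays, 9.72 and 9.73 on the TAC arrays, and 9.05 and 8.74 on the TAC-R arrays. The 13 endothelial markers also had a median of -0.35, with 0 passed and 9 apart and lower, and their mean was 10.53 and 10.55 on the normal, 10.46 and 10.46 on the TAC, and 10.20 and 9.94 on the TAC-R arrays. Fabp4, a fatty acid carrier of capillary endothelium, differed by -1.02 (adjusted p = 0.225, limma) and Aplnr, the apelin receptor, which was not among these markers, by -1.19 (adjusted p = 0.119, limma), whereas Emcn, the sialomucin endomucin of capillaries and veins, differed by 0.03. Pdgfra, a defining fibroblast marker, read 12.08 and 11.71 on the normal and 11.91 and 11.80 on the TAC-R arrays, where the groups overlapped. Medians of other cell type lists lay on both sides of 0. They were above 0 for macrophage (0.15), lymphatic endothelial (0.12) and endocardial (0.09) markers, with 0 passed in each. They were below 0 for adipocyte (-0.35), B and plasma cell (-0.30), smooth muscle and pericyte (-0.28) and epicardial (-0.21) markers, also with 0 passed in each. Of the 19 macrophage markers 13 were below background on all 6 arrays. The part of cell numbers in the matrix values was not tested.

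**Figure D4:**
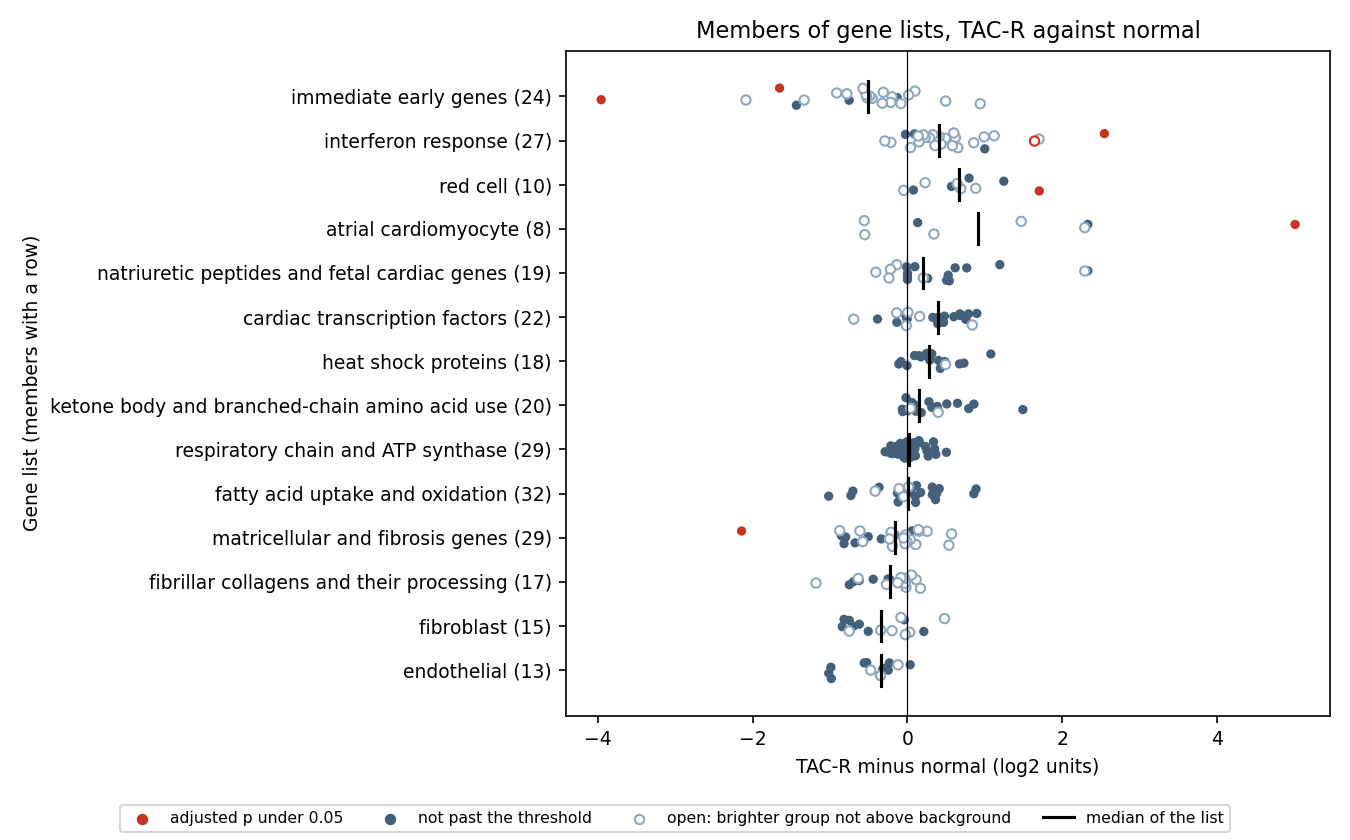
Each point is a gene of 14 lists, placed by the difference of TAC-R from normal in log2 units, filled where its brighter group was above background, open where not, and red where it passed; black bars are medians. The immediate early list is centred at -0.51, the interferon list at 0.41, and the respiratory chain list at 0.03 with members from -0.29 to 0.50.

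In each of the lists for heart muscle regulation and metabolism 0 genes passed. The 22 cardiac transcription factors had a median difference of 0.40. Their groups were apart and higher in 12 and lower in 4, where all rows gave 20.6% and 20.3%. Srf, serum response factor, read 10.85 and 10.39 on the normal arrays, 11.57 and 11.55 on the TAC arrays, and 11.70 and 11.33 on the TAC-R arrays (0.90 ± 0.25, adjusted p = 0.30, limma), while Myocd, its partner myocardin, differed by -0.39. The 18 heat shock protein genes had a median of 0.28, apart and higher in 12 and lower in 0, and Hspb1, a small heat shock protein, differed by 1.08 and Hsf1, the factor that drives them, by -0.11. The 24 genes of atrophy ligases, proteasome and autophagy had a median of 0.28, apart and higher in 15 and lower in 0.

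The 29 genes of the respiratory chain and ATP synthase had a median difference of 0.03, and their members above background ran from -0.29 (Cycs, cytochrome c) to 0.50 (Ndufa2, a subunit of complex I). The 32 genes of fatty acid uptake and oxidation had a median of 0.01. Ucp2, a mitochondrial carrier, read 16.15 and 16.18 on the normal arrays, 18.22 and 18.14 on the TAC arrays, and 17.31 and 16.79 on the TAC-R arrays, a difference of 0.89 that did not pass (adjusted p = 0.288, limma). Bdh1, which oxidises the ketone body beta-hydroxybutyrate, read 14.65 and 14.37 on the normal arrays, 17.42 and 17.17 on the TAC arrays, and 16.06 and 15.94 on the TAC-R arrays (1.49 ± 0.22, adjusted p = 0.0756, limma). Its list of 20 genes for ketone body and branched-chain amino acid use had a median of 0.14. Eno1, an enolase of glycolysis, read 14.50 and 14.13 on the normal arrays, 16.23 and 16.43 on the TAC arrays, and 15.60 and 15.67 on the TAC-R arrays (1.32 ± 0.23, adjusted p = 0.103, limma), and Eno3, the muscle enolase, differed by -0.53. Bdh1, Eno1 and Ucp2 shared an order, with the TAC-R arrays between the normal and the TAC arrays.

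Ion channel genes gave differences in both directions and 0 passed. Over 21 potassium channel genes the median was -0.01, with Kcnj2, the inward rectifier of the ventricle, at -1.06 (adjusted p = 0.225, limma) and Kcnd2, a channel of the transient outward current, at 1.09 (adjusted p = 0.278, limma). Over 15 sodium, calcium and pacemaker channel genes it was -0.13. Hcn4, the pacemaker channel of the sinus node, read 10.74 and 10.73 on the normal arrays, 9.53 and 9.26 on the TAC arrays, and 9.83 and 8.91 on the TAC-R arrays (-1.37 ± 0.31, adjusted p = 0.223, limma). Hcn2, its relative, read 11.09 and 10.97 on the normal arrays and 11.92 and 11.70 on the TAC-R arrays (0.77 ± 0.23, adjusted p = 0.312, limma). Rcan1, a calcineurin inhibitor and target, differed by 0.64 in a list of 20 calcium handling genes whose median was -0.09.

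Just outside the threshold lay 13 named rows above background with an adjusted p between 0.05 and 0.1, of which 11 had higher and 2 had lower TAC-R values. They were picked after their values were seen. Rows not above background were left out, among them Tbx18, which read lower on the TAC-R arrays (adjusted p = 0.0756, limma). Rxfp1, the relaxin receptor, read 7.52 and 7.65 on the normal arrays, 6.76 and 6.09 on the TAC arrays, and 9.25 and 10.04 on the TAC-R arrays, at least 2.21-fold higher (adjusted p = 0.0851, limma). Maoa, the mitochondrial monoamine oxidase, read 15.90 and 16.08 on the normal arrays, 15.43 and 15.23 on the TAC arrays, and 17.41 and 17.83 on the TAC-R arrays (1.63 ± 0.23, adjusted p = 0.0720, limma). Crym, a thyroid hormone binding protein, was at least 1.21-fold and Mt2A, a metallothionein, at least 1.84-fold higher. In Maoa, measured in all groups, the TAC arrays lay below the normal ones, and the TAC-R arrays were the highest. Rxfp1, Crym and Mt2A read on average in the same order, but their normal and TAC signals were below background. In none of these genes did TAC against normal pass. Qsox1 (a sulfhydryl oxidase), Cyp27a1 (sterol hydroxylase), Vnn1 (pantetheinase) and Bdh1 were also among the higher rows. So were RT1-S3, RT1-CE3 and RT1-CE13, class I MHC genes whose probes can bind transcripts of one another. The lower rows were Gpr22 and Pxdn, a peroxidase that crosslinks collagen IV, which read 10.78 and 10.77 on the normal arrays and 9.58 and 9.24 on the TAC-R arrays.

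Beside the TAC arrays, the named genes that passed took several orders. The comparisons of TAC and of TAC-R with normal share the normal arrays, so the values stand side by side without a test of likeness. In TAC against normal 59 rows passed (0.254%), and in TAC-R against TAC 100 rows (0.431%). Ifi27, measured in all groups, differed from normal by 2.21 log2 units on the TAC arrays and by 2.54 on the TAC-R arrays. Ifi27l2b, Irf7 and Cyp4v3 also passed as higher on both, from normal signals below background, so that the distance from normal was not measured in Ifi27l2b and Irf7 and is only bounded in Cyp4v3. Their TAC-R minus TAC values as read were -0.09, 0.03 and -0.02, and Irf7 was below background on all 6 arrays. Egr1 differed from normal by -2.93 on the TAC arrays (adjusted p = 0.00341, limma) and Ccn1 by -1.19, which did not pass, each further from normal on the TAC-R arrays by an amount that did not pass. Chrna1 was higher than normal on the TAC arrays too (adjusted p = 0.00703, limma), from normal signals below background. Alas2 passed against normal on the TAC arrays as well (adjusted p = 0.00341, limma), with TAC signals above the TAC-R ones and normal signals below background. Aif1l and Retsat differed from the TAC arrays by 2.90 and -2.03 (adjusted p = 0.00204 and 0.00810, limma). Myl7 and Ankrd23 were also higher on the TAC-R than on the TAC arrays (adjusted p = 0.00315 and 0.00416, limma), where their TAC signals were below background. On the TAC arrays none of these 4 passed against normal. Fgf7 lay on opposite sides of normal, higher on the TAC arrays (adjusted p = 0.0119, limma) and lower on the TAC-R arrays, with signals below background on the normal and the TAC-R arrays and so with no measured size.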

How the data were processed

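RNA was measured on 6 Affymetrix rat arrays, 2 per group. Per the labels, Expression Console was the authors' tool, and the deposited log2 values are its core-exon summaries by RMA (robust multi-array average). RMA makes distributions alike, so a shift of all transcripts together cannot be seen, and values stop at a ceiling of 19.93, where 17 rows lay on all arrays. Neither the software version nor the probe build is given in the sources used here. No further scaling was applied. The 1646 control rows were left out. A platform annotation named 15049 of the 23188 tested rows, and 8139 are unnamed.

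Differences were tested with limma 3.58.1 in R 4.3.3, with 1 mean per group over all 6 arrays, 3 residual degrees of freedom and no covariate. Rows passed at a Benjamini-Hochberg adjusted p under 0.05, and the code was tested on simulated data. There 50 rows were changed at each of 1, 2, 3 and 4 log2 units. The code recovered 6% of rows changed by 1 log2 unit and 80% of those changed by 2, with 4 false calls. More rows changed strongly there than the 21 that passed here, which eases the adjusted threshold, so these shares may be too high for the data. A gene that did not pass is thus not shown to be unchanged. Where the dimmer group was under the negative controls' 95th percentile, the bright mean was set against the higher of that percentile and the signal on each array, and the result is given as "at least". Precision is limited by the number of arrays.

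Named genes were the largest called rises and falls above background (up to 12 each, filled up to 6 with those of smallest p), called list members, a fixed list (among them Nppa, Nppb, Myh7, Col1a1 and Rxfp1), and the extremes above background of described lists. The 53 gene lists (32 pathways, 21 sets of cell type markers) and the genes were chosen with earlier results of these data known, and lists were described without a test. Alternatives covered the moderation, filters, scaling, the replicate number as a block and leaving out each array. Figures were drawn with matplotlib 3.10.9.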

Additional observations from a re-analysis of the deposited data

How the results depend on the processing

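The 21 rows that passed, 17 of them above background, became 156 and 129 with an intensity trend in the moderation, 12 and 10 with the normal and TAC-R arrays alone, 68 and 51 without rows under the median level, 52 and 52 without rows under the negative control percentile, 9 and 8 with control rows kept in, 37 and 27 without the rows at the ceiling, 54 and 34 with arrays centred on their medians, and 331 and 120 when an unadjusted p of 0.05 and a difference of 2-fold were asked instead. Fewer or other rows enter the adjustment or the pooled spread in the filtered fits, and the filters leave out some dim genes, which then have no value. With robust moderation they were 22 and 18, and with quantile normalization repeated 19 and 15, the latter split into 9 higher and 6 lower against 12 and 5. Background set at the 99th percentile left 6, and background by the mean of all arrays 12. Leaving out 1 array gave 0 to 12 rows, and 0 to 10 above background; the lone array of a pair is then assumed to vary like the other groups. The replicate numbers did not pair the arrays (correlations of deviations -0.0093, 0.0117 and -0.0127), and with the replicate block 11 rows passed, 9 of them above background.

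Of the 17 named genes that passed, all but Cpxm2 were followed through these settings and kept their direction wherever they had a value. Cpxm2 was followed only with 1 array left out, where its difference ran from 1.85 to 2.39. Small differences that did not pass turned sign as follows, with causes not tested. With quantile normalization repeated Emcn was -0.034. With arrays centred Bst2 was 0.022, Ccn2 0.023 and Xirp2 0.037. With 1 array left out the differences ran from -0.10 to 0.048 for Bst2, -0.13 to 0.083 for Ccn2, -0.13 to 0.20 for Emcn, -0.17 to 0.32 for Hbb-b1, -0.31 to 0.083 for Hsf1 and -0.42 to 0.16 for Jund. They ran from -0.0079 to 1.01 for Ndufa2, -0.87 to 0.19 for Nr2f2, -0.27 to 0.13 for Pccb, -0.61 to 0.68 for Postn, -1.09 to 0.027 for Sod3 and -0.083 to 0.30 for Timp1. Signal over background limits the sizes: of the 17 named genes 7 were measured, 5 bounded and 5 not measured.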
